A study of Mus musculus with 4 samples.

Results

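A set of 30 genes that serve homologous recombination and the response to DNA damage was examined in RNA of cultured mouse spermatogonial stem cells (SSCs), germ cells of the testis that renew themselves. The genes were taken by symbol from the deposited expression tables: 30 of 30 symbols each matched 1 gene of the 37653 listed with FPKM values, and all 30 were among the 17262 genes with enough counts to be tested. RNA came from SSCs of C57/BL6*DBA2 mice at postnatal day 10, grown with regular passages in a standard medium and sorted by flow cytometry. The study set 2 wild-type (WT) libraries against 2 libraries labelled Tex11PM/Y, named after the X-linked meiotic crossover gene Tex11. The labels state neither what PM stands for, nor the sort marker, nor whether the cells of a genotype came from separate cultures, mice or a single line, so p-values measure only the spread between these libraries, which may be technical.

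Homologous recombination repairs a broken chromosome by copying an intact one. The MRE11-RAD50-NBN complex and CtIP, encoded by Rbbp8, start to trim the broken ends, EXO1 and BLM extend the trimming, and RPA coats the single strand that results. BRCA1 with BARD1, PALB2, BRCA2 and further mediator complexes then prepare that strand to pair with the intact copy, and RAD54 proteins assist strand invasion. The Fanconi anaemia proteins act at DNA crosslinks, and the kinases ATM and ATR signal damage to CHEK2 and CHEK1. Germ cells use the same machinery in mitotic repair and, with meiosis-specific partners, for the programmed breaks of meiosis.

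Libraries held between 19047148 and 19804951 counts, and a gene with no count in a library could still have had up to 3, or 0.149 to 0.169 CPM (counts scaled to TMM library size), for counting error only. Both Tex11PM/Y columns carry the same replicate number, so they are called libraries A and B. Tex11 itself had 66.4 CPM in WT replicate 1, 126 in WT replicate 2, 22.7 in library A and 9.32 in library B, with no overlap (edgeR adjusted p = 0.884, log2 fold change -2.59 with a standard error of 0.54). The germ cell genes Ddx4 and Dazl, and Ret and Gfra1 of the GDNF receptor, were all above 100 CPM in every library. WT replicate 2 and library B resembled each other most, and WT replicate 1 and library A least, by the chi-square of their counts over its degrees of freedom (12.6 and 142.6). Below, values in 4 libraries follow the order WT replicate 1, WT replicate 2, library A, library B.

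Promoters are shown to place these genes in their sequence context; they were not tested against the values. RefSeq windows in GRCm38.p6, from 250 bases before to 50 bases after the start, matched 22 of 30 genes by symbol, and the first listed window of each was used. The 4 windows below, 5′ to 3′ on the gene's strand, belong to genes of the early and loading steps, with capitals at each match to an E2F-type string or to CCAAT on either strand.
Brca1, chr11:101551906-101552205, minus strand: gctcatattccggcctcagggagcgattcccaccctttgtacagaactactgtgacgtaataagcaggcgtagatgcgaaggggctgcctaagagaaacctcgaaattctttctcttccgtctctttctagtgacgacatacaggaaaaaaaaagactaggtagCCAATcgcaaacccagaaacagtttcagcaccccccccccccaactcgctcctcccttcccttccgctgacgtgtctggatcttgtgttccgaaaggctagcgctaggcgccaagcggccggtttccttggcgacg
Bard1, chr1:71102923-71103222, minus strand: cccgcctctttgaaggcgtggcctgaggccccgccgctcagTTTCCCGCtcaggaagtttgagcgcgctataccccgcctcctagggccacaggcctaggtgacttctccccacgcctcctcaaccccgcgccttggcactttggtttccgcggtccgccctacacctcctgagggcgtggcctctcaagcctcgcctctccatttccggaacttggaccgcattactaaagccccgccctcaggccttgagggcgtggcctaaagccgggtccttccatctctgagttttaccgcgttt
Brca2, chr5:150522371-150522670, plus strand: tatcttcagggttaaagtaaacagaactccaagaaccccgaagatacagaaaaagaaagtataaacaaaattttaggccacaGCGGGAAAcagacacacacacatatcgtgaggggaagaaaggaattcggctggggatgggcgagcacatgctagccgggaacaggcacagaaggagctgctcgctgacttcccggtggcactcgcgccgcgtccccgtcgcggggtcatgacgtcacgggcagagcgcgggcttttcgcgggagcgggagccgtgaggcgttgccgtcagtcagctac
Atm, chr9:53536622-53536921, minus strand: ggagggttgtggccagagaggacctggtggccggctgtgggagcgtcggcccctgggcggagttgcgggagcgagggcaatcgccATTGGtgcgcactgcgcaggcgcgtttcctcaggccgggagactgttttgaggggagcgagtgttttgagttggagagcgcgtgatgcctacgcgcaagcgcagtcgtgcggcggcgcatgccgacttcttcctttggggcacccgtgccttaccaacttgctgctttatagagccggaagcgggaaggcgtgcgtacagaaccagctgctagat

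The E2F-type strings TTTCCCGC, TTTCGCGC, TTTGCCGC and TTTGGCGC, read on both strands, match sites of the E2F factors that act at the start of S phase. They occurred in 7 of the 22 windows, those of Bard1, Brca2, Chek2, Mdc1, Msh6, Rad51c and Topbp1, and in 2.265% of the 32851 windows of the RefSeq table. Of these 7 genes, 3 (Brca2, Mdc1 and Topbp1) were lowest in WT replicate 1 and highest in library A, as were 11 of the 22. CCAAT, the string bound by NF-Y, occurred in 15 of 22 and in 37.4% of all windows. TTTGAA, the string of cell cycle homology elements, occurred in 1 of 22, that of Bard1, and in 17.9% of all windows. No string contains another, and a match describes letters in the window, not a bound site. The median GC content of the windows was 59.7% for the 22 genes and 52.7% for all windows.

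None of the 30 genes passed the test between genotypes (edgeR quasi-likelihood, adjusted p from 0.884 to 0.995), as for all genes, where 0% of 17262 passed. An unadjusted p under 0.05 was reached by 0 of 30 and by 2.7% of all genes. By contrast, 16 of 30 genes were lowest in WT replicate 1 and highest in library A, an order held by 20.9% of all genes tested. They were Brca1, Palb2, Brca2, Rad54b, Fancb, Fancm, Rad50, Nbn, Rbbp8, Exo1, Blm, Atm, Chek1, Mdc1, Topbp1 and Fanca. The median of the 30 genes was 5.37, 5.72, 5.96 and 5.47 log2 CPM, while that of all genes was 4.02, 3.87, 3.78 and 3.86.

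**Figure D1:**
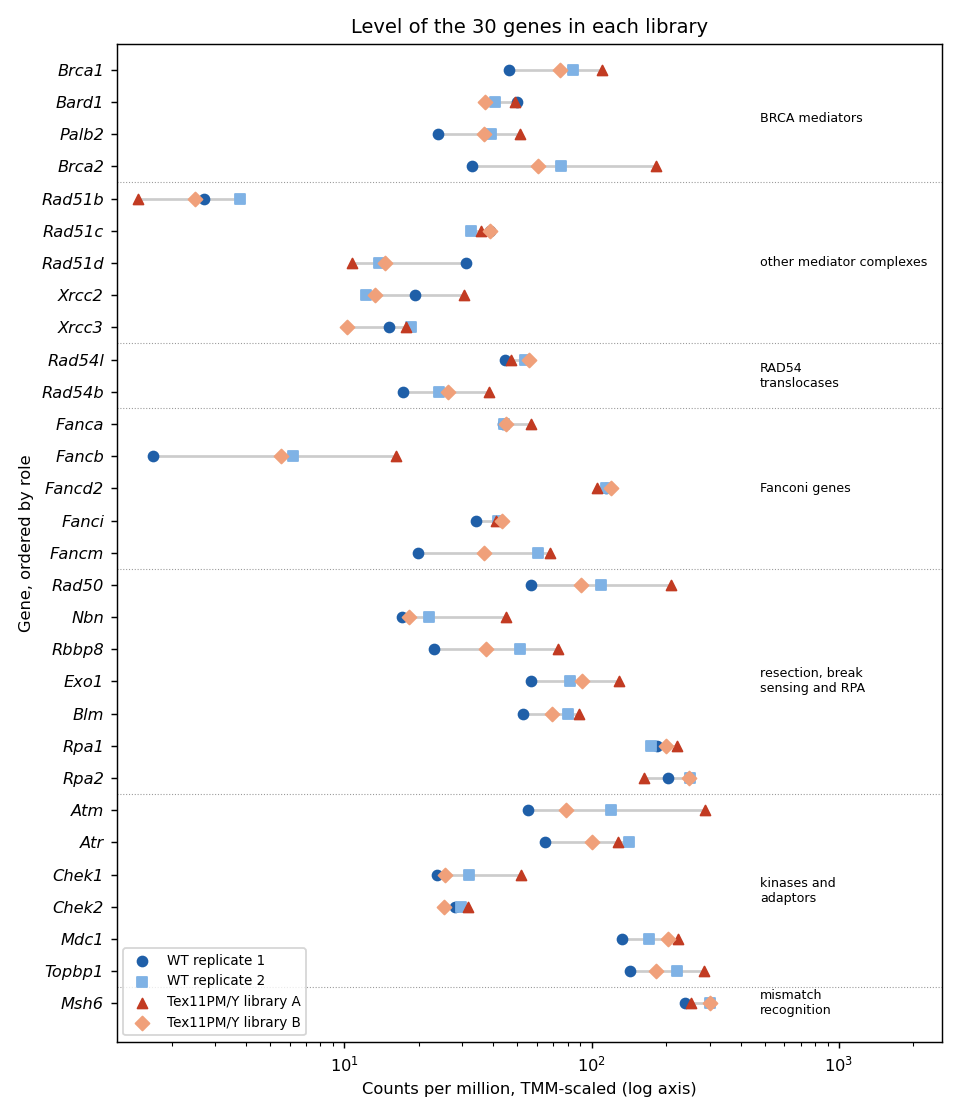
Counts scaled to library size (CPM, log axis) of each of the 30 genes in the 4 libraries, ordered by role, where each symbol is 1 library and the grey line spans the lowest to the highest. WT replicate 1 is the lowest symbol in 20 genes, against 34.42% of all genes tested, and library A the highest in 19, against 35.01%. WT replicate 2 and library B lie close together, without a gap of 2-fold in any of the 30.

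The widest contrast lay between WT replicate 1 and library A. From the first to the second, 13 of 30 genes were over 2-fold higher, against 19.6% of all genes, and 1 of 30, Rad51d, was over 2-fold lower, against 19.5%. WT replicate 2 and library B, of different genotype, were over 2-fold apart at 0 of 30 genes and at 5.68% of all genes. Within genotypes, WT replicate 2 exceeded WT replicate 1 by over 2-fold at 6 genes (Fancb, Fancm, Brca2, Rbbp8, Atr and Atm; 11.4% of all genes) and was over 2-fold lower at Rad51d (10.7%). Library A exceeded library B by over 2-fold at 7 (Atm, Brca2, Fancb, Nbn, Rad50, Xrcc2 and Chek1; 11.65% of all genes) and was over 2-fold lower at none of the 30 (13.0%). The members' median difference in log2 CPM was 0.75 for library A minus WT replicate 1, 0.44 for library A minus library B and 0.40 for WT replicate 2 minus WT replicate 1. It was -0.15 for library B minus WT replicate 2.

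Among the BRCA mediators, Brca2 varied most. Brca2, which acts at the resected single strand and lies on the plus strand of chromosome 5 (150522630 to 150569747, mm10), held 32.9, 75.3, 182 and 60.7 CPM, out of 585, 1488, 3619 and 1219 reads counted. The WT mean was 54.1 ± 29.97 CPM and the Tex11PM/Y mean 121.5 ± 85.9 CPM (SD, 2 libraries each), a log2 fold change of 1.17 with a standard error of 0.61. The groups overlapped, since library B lay between the WT replicates. Brca1, whose protein acts with BARD1 as a ubiquitin ligase and promotes resection, held 46.2, 84.1, 110.3 and 74.5 CPM. Its group means were 65.1 ± 26.8 and 92.4 ± 25.3 CPM, again with library B between the WT replicates (log2 fold change 0.50, standard error 0.40). Palb2, the bridge between BRCA1 and BRCA2, had the same order of libraries, from 23.8 to 51.4 CPM. Bard1, the partner of Brca1, did not: it held 49.7, 40.7, 49.1 and 37.02 CPM, a range of less than 1.5-fold.

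The 5 genes of the other mediator complexes (Rad51b, Rad51c, Rad51d, Xrcc2 and Xrcc3) had no common pattern, and include both of the genes with the lowest fitted values. Rad51d (chromosome 11, 82876699 to 82890614), part of a complex with XRCC2, RAD51B and RAD51C, held 31.0, 13.8, 10.8 and 14.6 CPM. WT replicate 1 stood above the other 3 libraries, which were within 1.5-fold of each other, and the log2 fold change was -0.82 (standard error 0.52). Rad51b, with the lowest mean TPM of the 30 genes over the 4 libraries, held 2.70, 3.79, 1.46 and 2.49 CPM, from 48, 75, 29 and 50 counts. Both Tex11PM/Y libraries were below both WT libraries (log2 fold change -0.71, standard error 0.68), which held for this 1 of 30 genes and for 16.3% of all genes. Rad51c was nearly level, from 32.6 to 38.9 CPM. Xrcc2 held 19.3, 12.2, 30.4 and 13.3 CPM, with overlapping groups, and Xrcc3, the partner of RAD51C in another complex, held 15.1, 18.7, 17.7 and 10.2 CPM.

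The RAD54 translocase genes differed from each other. Rad54l, which encodes RAD54, held 44.8, 53.9, 47.04 and 55.6 CPM, with 1 library of each genotype at either level (log2 fold change 0.06, standard error 0.33). Rad54b held 17.3, 24.02, 38.5 and 26.2 CPM, so that both Tex11PM/Y libraries were above both WT libraries (edgeR adjusted p = 0.884, log2 fold change 0.65 with a standard error of 0.41). Of its exonic bases 39.2% also belong to other annotated genes, among them Fsbp, so the source of part of its reads is uncertain. Fsbp held between 0.45 and 1.91 CPM.

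In the Fanconi group, Fancb had the widest spread of the 30 genes and Fancd2 one of the narrowest. Fancb (chromosome X, 164980592 to 164997272), a subunit of the ubiquitin ligase core complex, held 1.69, 6.17, 16.2 and 5.53 CPM, from 30, 122, 321 and 111 counts. Library A stood 9.59-fold above WT replicate 1, while WT replicate 2 and library B nearly coincided (log2 fold change 1.46, standard error 0.83). Fancm, a translocase that brings the core complex to DNA, held 19.8, 60.4, 67.6 and 36.6 CPM, with library B inside and library A just above the WT range (log2 fold change 0.38, standard error 0.57). Fanca, another core subunit, held 43.9, 44.0, 56.8 and 44.9 CPM: the WT replicates agreed within 0.1 CPM and library B lay less than 1 CPM above them. Fancd2 and Fanci encode the pair that the core complex ubiquitinates. Fancd2 held 114, 115, 105 and 120.0 CPM, and Fanci 34.1, 41.7, 41.2 and 43.4 CPM, with 13.4% of its exonic bases shared with Polg.

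Genes of resection and break sensing had the highest median fitted difference of the larger role groups, 0.57 log2, with 6 of 7 fitted higher in Tex11PM/Y and Rpa2 the exception, which was fitted higher only on the TPM scale (0.056) or with a library left out. Exo1 (chromosome 1, 175880581 to 175913489), a nuclease of long-range resection, held 56.9, 81.8, 128 and 91.5 CPM, and had the smallest unadjusted p of the 30 genes (group means 69.4 ± 17.6 and 110.0 ± 26.1 CPM, SD over 2 libraries each; edgeR adjusted p = 0.884, log2 fold change 0.66 with a standard error of 0.34). Its genotypes did not overlap, but library B was nearer to WT replicate 2 than to library A. Rad50, the coiled-coil ATPase of the MRE11 complex, held 57.1, 109, 209 and 90.1 CPM (log2 fold change 0.85, standard error 0.49), with library B between the WT replicates. Its partner Nbn, which recruits ATM, held 17.0, 21.9, 45.2 and 18.2 CPM, so that library A alone was high. Rbbp8 ranged from 22.98 CPM in WT replicate 1 to 72.9 in library A, and Blm, a helicase that also dissolves joint molecules, from 52.8 to 88.5.

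The RPA genes were among the most abundant. Rpa1, the large subunit, held 183, 174, 221 and 199 CPM, and Rpa2 held 204, 251, 163 and 247. Rpa1 was higher in both Tex11PM/Y libraries, by a fitted log2 value of 0.24 (standard error 0.27), whereas Rpa2 was lowest in library A by CPM, though not by TPM, where WT replicate 1 was lowest.

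Among kinases and adaptors, Atm and Mdc1 had the smallest unadjusted p. Atm (chromosome 9, 53439149 to 53536740), the kinase activated at double-strand breaks, held 55.2, 120.0, 286 and 78.7 CPM, with library A over 2-fold above every other library and library B between the WT replicates. Its group means were 87.6 ± 45.8 and 183 ± 147 CPM (SD over 2 libraries each), with a log2 fold change of 1.06 and a standard error of 0.66. Mdc1, which binds phosphorylated H2AX beside a break, held 132, 171, 224 and 203 CPM, with no overlap between genotypes (log2 fold change 0.49, standard error 0.29). Atr, the kinase activated by RPA-coated single strands, held 64.6, 142, 128 and 101 CPM, and its highest value was in WT replicate 2. Chek1, the kinase downstream of ATR, held 23.7, 32.0, 52.0 and 25.6 CPM, and Chek2, downstream of ATM, only ranged from 25.2 to 31.5. Topbp1, the ATR activator, ranged from 142 in WT replicate 1 to 285 in library A. Msh6, which recognises mismatches, held 239, 299.7, 252 and 302 CPM, with 1 library of each genotype at either level (log2 fold change 0.04, standard error 0.29).

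In all, 5 of 30 genes (Exo1, Mdc1, Rad54b, Fanca and Rpa1) had both Tex11PM/Y libraries above both WT libraries, as did 16.1% of all genes. Of the 30, 23 were fitted higher and 7 lower in Tex11PM/Y, with a median log2 fold change of 0.30, against 0.01 over all genes tested, of which 51.0% were fitted higher. With library size alone as the scaling, Bard1, Chek2 and Fancd2 turned from slightly lower to slightly higher values, of 0.047 at most. The median was 0.07 without library A and 0.10 without WT replicate 1, fits that each leave 1 library of that genotype, whose spread is then taken from the other genotype. Without library B, 2.76% of 18765 genes passed the threshold and 0 of 30 did, the nearest being Atm (edgeR adjusted p = 0.0552) and Brca2 (edgeR adjusted p = 0.0581). Exact permutation of 2 against 2 libraries cannot give a two-sided p under 0.333 for a single gene.

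**Figure D2:**
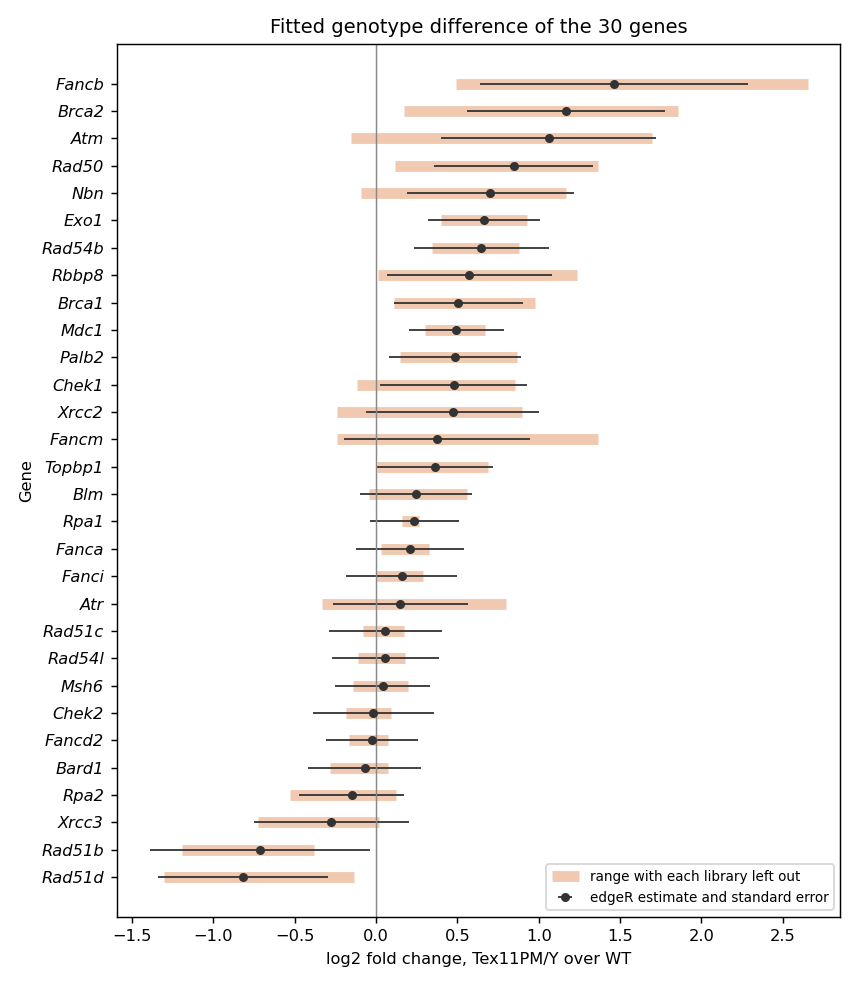
Fitted log2 fold change of each of the 30 genes, Tex11PM/Y over WT, with edgeR's estimate (point), its standard error (line) and the range over fits that leave out each library in turn (bar). Estimates run from -0.82 (Rad51d) to 1.46 (Fancb), and bars of 16 genes cross 0, among them Atm and Nbn.

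Levels of different genes were compared as TPM, which is per length. Rpa2 had the highest mean TPM over the 4 libraries (266.8), followed by Msh6 (146), Rpa1 (97.5), Topbp1 (91.3), Mdc1 (56.8) and Rad50 (52.9). Rad51b (2.62) and Fancb (5.70) were lowest, below Rad51d (11.2), Xrcc3 (13.6) and Xrcc2 (14.2). Rpa2 held 209, 318, 231 and 311 TPM. Of the 29 pairs of neighbours in that order, 28 had overlapping ranges over the 4 libraries and are within the spread of each other, the exception being Rpa2 (from 209 TPM) and Msh6 (to 162 TPM). On the TPM scale library A stood higher in general: the median over 17041 genes of its ratio to WT replicate 1 was 1.36 in TPM and 1.01 in CPM. Rpa1 departed from that shift most, at 2.17 in TPM and 1.21 in CPM.

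Ratios were taken for 15 pairs of related genes, most of them partners in a protein complex and the others paired by role (Atm and Atr, Chek1 and Chek2, Rad54b and Rad54l). Brca1 counts per Bard1 count, on the CPM scale, were 0.93, 2.07, 2.25 and 2.01, so WT replicate 1 alone was low. The ratio of Xrcc2 to Rad51d was 0.62, 0.89, 2.82 and 0.91, the widest of the 15, with library A alone high. Atm per Atr was 0.85, 0.85, 2.24 and 0.78, and Rad54b per Rad54l was 0.39, 0.45, 0.82 and 0.47, both again set apart in library A. Rad50 per Nbn was steadier (3.35, 5.00, 4.63 and 4.96), as was Fancd2 per Fanci (3.34, 2.75, 2.55 and 2.77), which spanned 1.31-fold. Rad50 per Mre11a, the third gene of that complex, spanned 2.68-fold (0.82, 1.57, 2.21 and 1.14). No ratio was tested, and no ratio is a level per gene length.

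**Figure D3:**
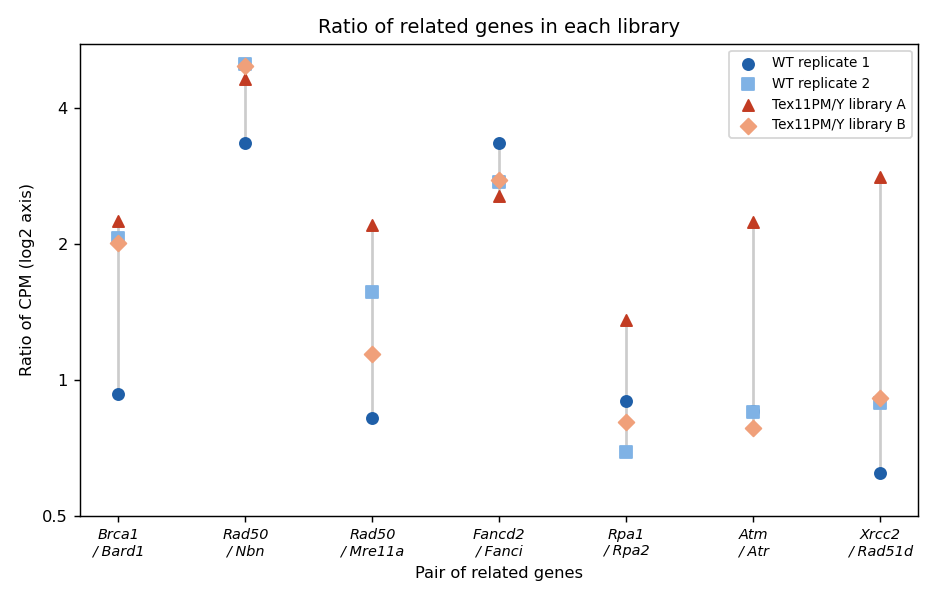
Ratio of CPM values of 7 of the 15 pairs of related genes in each library (log axis), 1 symbol per library; for Atm per Atr the symbol of WT replicate 1 lies behind that of WT replicate 2. Library A lies apart from the other 3 for Xrcc2 per Rad51d and Atm per Atr, and WT replicate 1 for Brca1 per Bard1, while Fancd2 per Fanci spans 1.31-fold.

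Further genes of the same pathways did not pass the test either. In 7 lists holding 91 further genes, 91 were found and tested, and 0 passed the threshold (edgeR) in either direction. An unadjusted p under 0.05 was reached by 0 of them and by 2.7% of all genes. Of the 91, 68 (74.7%) were fitted higher and 23 lower, where 51.0% of all genes were fitted higher. Higher in both Tex11PM/Y libraries were 25 (27.5%), against 16.1% of all genes, and lower in both were 4 (4.40%), against 16.3%. Lowest in WT replicate 1 and highest in library A were 36 (39.6%), against 20.9% of all genes. The list of non-homologous end joining, the competing repair route, had 8 of 10 genes fitted higher and a median log2 fold change of 0.54, with Polq, of theta-mediated joining, at 15.0, 21.3, 60.4 and 16.5 CPM and the ligase gene Lig4 at 9.83, 14.7, 35.5 and 10.2 CPM. Mismatch repair genes other than Msh6 had 7 of 8 fitted higher and a median of 0.47, among them Msh3 (14.9, 24.1, 47.3 and 21.1 CPM) and Msh4, a meiotic crossover gene (6.24, 9.31, 18.1 and 10.8 CPM). Dissolution, resolution and RPA partner genes had 12 of 15 fitted higher (median 0.34), Fanconi genes 10 of 16 (0.28) and resection and break-sensing genes 11 of 14 (0.22). Checkpoint genes had 10 of 14 (0.13) and other mediator genes 10 of 14 (0.11).

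Of the genes with the smallest p in these lists, most had their highest value in library A. Fignl1 held 40, 39.8, 83.7 and 41.8 CPM and the helicase gene Helq 16.7, 16.3, 34.2 and 18.1 CPM, so that library A alone was high. The Fanconi core gene Fancc held 13.9, 19.02, 29.7 and 23.7 CPM, and Slx4, a scaffold of nucleases, 21.0, 27.3, 52.1 and 26.9 CPM. Timeless, of the replication fork, held 63.2, 64.5, 108 and 83.3 CPM. Rmi1, a partner of BLM, held 16.3, 26.7, 46.9 and 26.3 CPM, whereas the helicase gene Mcm9 was highest in library B, at 27.4, 38.7, 43.7 and 57.1 CPM.

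Among the same genes, Rif1 and Mad2l2 lay at the ends of the fitted range. Rif1, which limits resection, held 59.6, 146, 442 and 108 CPM (log2 fold change 1.42, standard error 0.75), and Etaa1, an ATR activator, 29.4, 73.4, 162 and 68.02 CPM. Mad2l2, a shieldin subunit that also limits resection, went the other way: at 22.4, 20.1, 7.76 and 12.9 CPM it was lower in both Tex11PM/Y libraries (edgeR adjusted p = 0.884, log2 fold change -1.04 with a standard error of 0.47). The fit without library B, which rests on library A alone for Tex11PM/Y, gave Rif1 a log2 fold change of 2.06. Transcripts of Rif1 and Etaa1 have a GC content of 39.3% and 39.8%. Of all genes under 40%, 53.3% were over 2-fold higher in library A than in WT replicate 1. The part of base composition in these values was not tested.

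The base composition of the transcripts ran with the difference between the extreme libraries. Coding stretches of the 2 genes with the largest differences and of the 2 with the highest GC content of the 30 show the range of composition. Other genes of middling GC content, such as Bard1, Rad54l, Msh6 and Fancd2, were closer to 0 than the latter, at -0.02, 0.07, 0.08 and -0.12 log2. So was Rad51c, of low GC content (44.4%), at -0.13 log2, the lowest of the 11 genes under 45%. Each stretch is the central 90 bases of the longest coding exon, in GRCm38, 5′ to 3′ on the gene's strand, with G and C in capitals.
Brca2, exon 11 of 27, chr5:150541008-150541097, plus strand: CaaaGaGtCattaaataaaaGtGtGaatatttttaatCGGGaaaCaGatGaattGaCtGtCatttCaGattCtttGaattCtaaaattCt
Fancb, exon 2 of 9, chrX:164982944-164983033, plus strand: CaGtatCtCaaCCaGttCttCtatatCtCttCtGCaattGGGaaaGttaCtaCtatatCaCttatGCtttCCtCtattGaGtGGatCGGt
Fanca, exon 26 of 43, chr8:123288112-123288201, minus strand: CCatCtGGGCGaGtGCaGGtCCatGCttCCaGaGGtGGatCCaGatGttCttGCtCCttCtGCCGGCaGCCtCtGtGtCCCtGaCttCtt
Xrcc3, exon 8 of 8, chr12:111804515-111804604, minus strand: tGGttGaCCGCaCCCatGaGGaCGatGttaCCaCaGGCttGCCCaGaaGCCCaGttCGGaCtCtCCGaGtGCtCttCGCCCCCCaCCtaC

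G and C make up 26.7% and 37.8% of the stretches of Brca2 and Fancb, and 57.8% and 61.1% of those of Fanca and Xrcc3. Whole exons hold 37.1%, 40%, 58.1% and 60.2%, so the stretch of Brca2 is poorer in G and C than its exon. Over longest transcripts, the 30 genes had a median GC content of 46.2%, from 40.8% (Atr) to 56.9% (Xrcc3), against 49.8% over 17247 genes tested that had a value. In all genes with a GC content from 40 to 45%, the median of library A minus WT replicate 1 was 0.50 log2, and it was -0.42 in those from 55 to 60%. The 11 members of the first band, Brca2, Fancb and Atm among them, had a median of 1.40, and 8 of them were over 2-fold higher in library A, as were 32.9% of all genes in the band. From 45 to 50% the median was 0.10 for all genes and 0.27 for 14 members, 5 of which were over 2-fold higher, against 19.1% of all genes there. Spearman's rank correlation of GC content with this difference was -0.33 over all genes and -0.58 over the 30, descriptions over genes that share the same 2 libraries. With each library's trend on GC content taken out as an offset, an alternative chosen after the data were seen, 8 of 30 genes were over 2-fold higher in library A, against 16.9% of all genes, and 13 of 30 were lowest in WT replicate 1 and highest in library A, against 18.5%. Fancb then differed by 2.52 log2, Brca2 by 1.87 and Atm by 1.80, while Chek1 differed by 0.36 and Atr by 0.19.

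**Figure D4:**
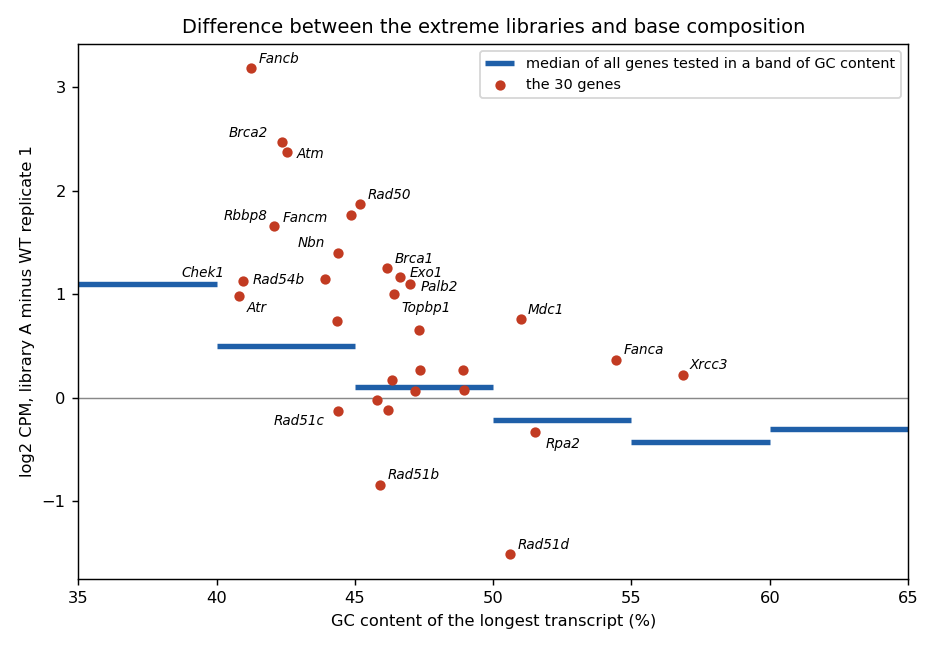
Difference in log2 CPM between library A and WT replicate 1 against the GC content of the longest transcript (%), for the 30 genes (red points) and as the median of all genes tested in bands of GC content (blue lines). Fancb, Brca2 and Atm lie above the lines at low GC content, and Rad51d and Rad51b below them.

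Marker genes of other cells also differed between these libraries. Fibroblast markers (15 of 15 tested, none at 0) took 1.59%, 0.50%, 0.058% and 0.63% of counts, or summed values of 16990, 4945, 562 and 6175 CPM, and the collagen gene Col1a1 held 4710, 995, 102 and 1531 CPM. Macrophage markers (10 of 10 tested, none at 0) summed to 664, 516, 25.6 and 1236 CPM, with Lyz2, a lysozyme, at 529.5, 417, 13.1 and 1052 CPM. Lyz2 made up most of the sum in WT replicate 1, WT replicate 2 and library B, and was fitted slightly higher (log2 fold change 0.17). Of the 10, 3 were fitted higher and 7 lower, with a median of -0.34. The list's median was 3.83, 3.04, -0.22 and 3.81 log2 CPM. Germ cell markers (10 of 10) took 0.20%, 0.29%, 0.41% and 0.30%, lowest in WT replicate 1 and highest in library A. Of the 10 genes, 5 had that order, against 20.9% of all genes. In both Tex11PM/Y libraries 3 were higher (16.1% of all genes) and 2 lower (16.3%), with 7 fitted higher and 3 lower. Ddx4, a germ cell helicase with that order, held 214, 357, 531 and 298 CPM. Peritubular myoid markers (6 of 6 tested, none at 0) summed to 195, 34.6, 7.504 and 32.0 CPM, with a median log2 fold change of -1.83. Of the 6, 4 were lower in both Tex11PM/Y libraries, against 16.3% of all genes. Acta2, a smooth muscle actin, made up most of the sum in WT replicate 1 and held 178, 24.3, 2.72 and 22.1 CPM. Myh11, of the same list, held 2.70, 5.61, 2.97 and 5.93 CPM and was fitted slightly higher (log2 fold change 0.098). The Sertoli, Leydig and endothelial lists each took at most 0.00322% of a library. Stem cell markers (8 of 8) took 0.12%, 0.085%, 0.088% and 0.091%, without that order. Of 24 genes of DNA replication and proliferation, 14 were fitted higher and 10 lower in Tex11PM/Y, with a median log2 fold change of 0.09. Their median for library A minus WT replicate 1 was 0.06 log2, against 0.75 for the 30 genes. The 24 genes took 0.32%, 0.37%, 0.39% and 0.36% of counts, also lowest in WT replicate 1 and highest in library A. Of the 24, 6 had that order, against 20.9% of all genes. Pcna, the replication clamp, held 97.4, 134, 140.1 and 126 CPM and the helicase gene Mcm2 445, 424, 357 and 425 CPM. The part of other cells and of proliferation in the members' differences was not tested, and in bulk RNA fewer cells of a type and less RNA per cell cannot be told apart.

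By position, 4 of the 30 genes lie on chromosomes 8 and 12, where the genes of the whole chromosome stood higher in 1 WT library. In WT replicate 2 the 632 tested genes of chromosome 12 exceeded the mean of the remaining libraries by a median of 0.57 log2, and Rad51b, Fancm and Xrcc3 did so by 0.79, 0.72 and 0.41. In library A the chromosome's median was -0.07, and the same genes held -0.96, 0.94 and 0.31. In WT replicate 1 the median excess of 921 chromosome 8 genes was 0.40, whereas Fanca had a value of -0.13. On chromosome X, Fancb in library A was above the mean of the remaining libraries by 2.03, where the median of 645 genes was 0.16. The part of these shifts in the genotype values of the 4 genes was not tested.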

How the data were processed

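Poly(A) RNA of sorted SSCs was sequenced in 4 libraries, 2 per genotype, made with a NEBNext Ultra kit from 1 µg RNA per the labels' protocols, which do not call it stranded. Reads of overlapping or antisense genes are therefore ambiguous. Tools and a build listed in the submitters' processing notes, with no role, are mm10, StringTie, STAR, fastp, featureCounts and DESeq2. The authors deposited raw read counts in whole numbers for 55335 genes and, for 37653 genes, tables of TPM and of FPKM. For how the authors computed FPKM and TPM, and from which annotation release, the sources used here give nothing. Symbols came from the FPKM table and, for 17602 genes, from a reference name table, and 80 genes had none. Both Tex11PM/Y columns have the same header, so they are named A and B by column order and cannot be tied to a replicate number. No 2 libraries agreed within sampling noise.

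Counts were tested with edgeR 4.0.16 in R 4.3.3: filterByExpr, TMM factors, robust quasi-likelihood fits on genotype alone, and p-values adjusted by Benjamini-Hochberg over all 17262 genes tested, called under 0.05. The biological coefficient of variation was 43.4%. A prior count of 2 was added for log2 CPM. The fit was also run on simulated counts, drawn independently and without the shifts between libraries seen here. That run does not measure how the test performs on these data. Alternatives were library size alone or DESeq2 size factors for scaling, DESeq2 1.42.0 itself, no filter or at least 1 CPM in 2 libraries, limma 3.58.1 on log2(FPKM + 1) with and without a filter of 1 FPKM in 2 libraries, log2(FPKM + 0.1) and log2(TPM + 1), and each library left out. Offsets from a lowess (span 0.3) of each library's values on GC content were chosen after the data were seen. GC content came from GENCODE transcripts of GRCm38, and gene length and exon overlaps from the gene annotation deposited with the counts.

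The 30 genes, their role groups and the other lists were chosen with earlier results of these data known. Values in each library were given for the 2 genes with the smallest unadjusted p per role group and for genes on chromosomes 8, 12 and X, for the 2 smallest p of each pathway list, and for Tex11. The rule also took the first 2 genes of each marker list, of which a part is given with values and the rest only in the sums of their lists; that part, and all other values, were chosen after they were seen.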

Additional observations from a re-analysis of the deposited data

How the results depend on the processing

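Among the 30 genes, 0 passed the threshold under any of 14 alternatives, with a smallest adjusted p of 0.0552 (edgeR, Atm, without library B). Over all genes DESeq2 called 1 and edgeR with no count filter 50, and with a library left out the count ranged from 0 to 518, the highest without library B, where the pathway lists had 1 call and otherwise 0. Genes higher in both Tex11PM/Y libraries numbered 8 on log2(TPM + 1), a scale on which library A stood higher in general. They numbered from 7 to 21 with a library left out, when fewer libraries have to be apart (21 without WT replicate 2, 19 without library B). Shares of all genes under these settings are not given here, so these counts do not set the 30 genes apart from other genes. The median log2 fold change ranged from 0.067 (without library A) to 0.61 (without WT replicate 2). On log2(TPM + 1) it was 0.58, with a median of 0.18 over all genes.

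Of the 30 genes, 14 kept their sign under every alternative and 16 did not, each of these with some library left out. With library size alone Bard1 turned to 0.0016, Chek2 to 0.047 and Fancd2 to 0.040. On log2(FPKM + 1), with or without a filter, they were at 0.016, 0.0053 and 0.075, and on log2(FPKM + 0.1) at 0.017, 0.0057 and 0.078. On log2(TPM + 1) they were at 0.13, 0.12 and 0.19, and Rpa2 at 0.056. Offsets for GC content turned Atr to -0.11 and Rad51c to -0.088. The cause of these turns was not tested. With a library left out the ranges of sign-changing genes were -0.15 to 1.695 for Atm, -0.33 to 0.80 for Atr, -0.29 to 0.072 for Bard1, -0.046 to 0.56 for Blm, -0.12 to 0.86 for Chek1, -0.18 to 0.089 for Chek2, -0.17 to 0.072 for Fancd2 and -0.00076 to 0.29 for Fanci. They were -0.24 to 1.37 for Fancm, -0.14 to 0.19 for Msh6, -0.10 to 1.17 for Nbn, -0.083 to 0.17 for Rad51c, -0.11 to 0.18 for Rad54l, -0.53 to 0.12 for Rpa2, -0.24 to 0.90 for Xrcc2 and -0.72 to 0.020 for Xrcc3. Fits without a library leave 1 of that genotype, whose spread is taken from the other genotype.

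No paired analysis was possible because both Tex11PM/Y columns carry the same replicate number. Rad51b, at 29 to 75 counts, and Fancb, at 30 in WT replicate 1, are the genes whose values counting error limits most.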

Other observations

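Meiotic prophase genes, which act with the recombination machinery once germ cells enter meiosis, were measured beside the 30 genes. All 8 listed genes were tested and none passed the threshold (edgeR). Of the 8, 4 were over 2-fold higher in library A than in WT replicate 1, against 19.6% of all genes. In the fit 5 were higher and 3 lower in Tex11PM/Y. Lowest in WT replicate 1 and highest in library A were 3, against 20.9% of all genes. Higher in both Tex11PM/Y libraries was 1, against 16.1%. Sycp1 and Sycp2 made up most of the list's sum of 589 CPM in library A. The 8 had a median GC content of 38.2%, and 53.3% of all genes under 40% were over 2-fold higher in that comparison. Sycp1, of the synaptonemal complex, held 44.7 CPM in WT replicate 1, 95.1 in WT replicate 2, 287 in library A and 78.1 in library B. Sycp2, of the same structure, held 24.0, 40.4, 201 and 31.2 CPM in that order. Transcripts of both are low in G and C, at 34.6% and 36.4%, below each of the 30 recombination genes.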
